A study of Mus musculus with 3 samples.

Results

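The cells described here are regulatory T cells of the mouse lung, taken as the cell barcodes with at least 1 Foxp3 molecule count (unique molecular identifier, UMI), at least 1 UMI of Cd3d, Cd3e or Cd3g, no UMI of Cd8a or Cd8b1 and at most 1 UMI of Cd79a. Only barcodes with at least 250 detected genes and at most 15% of UMIs from mitochondrial genes were considered. The rule gave 534 members among 28782 such cells. The members were thus selected on measured UMIs of Foxp3, the Cd3 genes, Cd8a, Cd8b1 and Cd79a, so their levels are no finding here. Foxp3 lies on the X chromosome of build GRCm38, from base 7573644 to 7595245 on the plus strand.

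Lung tissue was profiled by 10x droplet 3′ single-cell RNA sequencing in 3 groups of mice with 1 library each. The groups were wild-type mice that were not irradiated, wild-type mice that were irradiated, and irradiated mice with a conditional knockout that were also given a drug. The last group is called the knockout library below, and its knockout and drug cannot be told apart, because no group had one without the other. The labels give neither the deleted gene and the promoter that drives its deletion, nor the drug, the dose, the time after irradiation, the age of the mice or how many mice were pooled. With 1 library per group, no difference between libraries has a replicate check. Intervals printed beside such differences are 95% intervals that cover counting error only, and no p-value is given for them.

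Regulatory T cells are CD4 T cells that restrain other immune cells. The transcription factor Foxp3 holds them in their lineage, the receptor Ctla4 removes co-stimulatory ligands from antigen-presenting cells, and the high-affinity interleukin-2 receptor chain Il2ra lets them consume interleukin-2. In the lung, a tissue-adapted form that carries the interleukin-33 receptor Il1rl1 and the receptor Klrg1 is known for making amphiregulin, an epidermal growth factor receptor ligand that takes part in epithelial repair.

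The 3 libraries held 85984536 UMIs (non-irradiated), 45800421 UMIs (irradiated wild-type) and 76667310 UMIs (knockout). Of their 15485, 7084 and 11292 barcodes, 13091, 5805 and 9886 were kept. The libraries shared 25 to 46 barcodes pairwise, and no member's barcode occurred in another library. The irradiated wild-type library held cells with Y-linked transcripts and no Xist, which made up 27.5% of its kept cells against at most 0.273% in the other libraries. These male cells included 68 of its 261 members, so each result that could rest on them was repeated with female cells only. Free RNA gave little Foxp3: a Foxp3 UMI was found in 0 of 1333, 2 of 537 and 2 of 656 B-type cells in the order non-irradiated, irradiated wild-type and knockout, at median depths of 4686, 4908 and 5903 UMIs. The 0 of 1333 cells allows a share of up to 0.225%. Cd3-positive cells without Cd8 had a Foxp3 UMI in 3.72%, 10.5% and 4.71% of cells, at median depths of 6026, 6187 and 6177 UMIs. Values below follow this order unless named.

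The non-irradiated library supplied 67 members with 458280 UMIs in all, the irradiated wild-type library 261 members with 2740139 UMIs, and the knockout library 206 members with 2013930 UMIs. The median member held 5263, 7634 and 7667 UMIs and 1817, 2320 and 2288 genes. Values of the non-irradiated library therefore rest on the fewest and shallowest cells. Of the 534 members, 35 took over 0.5% of their UMIs from marker genes of B, myeloid, epithelial, endothelial or mesenchymal cells, and 17 of these lay in the non-irradiated library (25.4% of its members). The summed level of the 9 mesenchymal markers was 6271, 139 and 363 counts per 1000000 UMIs (CPM), with all 9 detected in each library. That of the 9 epithelial markers was 1440, 193 and 361 CPM, with Scgb3a1 at 0 in the non-irradiated members. Myeloid markers stood at 258, 74.8 and 254 CPM and B cell markers at 415, 1781 and 600 CPM. Markers of other T cells were higher in the irradiated libraries: 4 CD8 T cell markers summed to 111, 750 and 749 CPM, with Gzmk at 0 in the non-irradiated members, and 7 gamma-delta T cell markers to 8.73, 211 and 138 CPM, with Tcrg-C2, Tcrg-C4, Sox13 and Blk at 0 there and Tcrg-C4 at 0 in the knockout members. Conventional CD4 T cells, defined below, lay above the members in each library, at 615, 789 and 1565 CPM for the CD8 markers and 240, 263 and 224 CPM for the gamma-delta markers. The gamma-delta sum includes the cytokine gene Il17a, at 12.5 CPM in female and 451 CPM in male irradiated wild-type members. The 4 haemoglobin genes summed to 2322, 2071 and 5396 CPM. The marker-rich members thus move with the non-irradiated library, and their part in the results was not tested beyond repeating counts without them.

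The label was checked with 4 markers that the rule did not use. Ctla4 was detected in 97.0%, 96.9% and 95.2% of members, Tnfrsf4 (the co-stimulatory receptor OX40) in 85.1%, 89.3% and 84.5%, and Ikzf2 (the zinc-finger factor Helios) in 73.1%, 90.8% and 86.4%. Il2ra was detected in 37.3%, 67.4% and 55.8%. A Cd4 UMI, which the rule did not ask for, was found in only 281 of the 534 members: 38.8%, 59.8% and 48.1%. Conventional CD4 T cells, taken as Cd3-positive cells with a Cd4 UMI, no Foxp3, no Cd8 and at most 1 Cd79a UMI, served as the nearest comparison: 225, 360 and 536 cells. In them Ikzf2 was detected in only 8.89%, 33.1% and 22.8% of cells. Their median depths were 6521, 6558 and 6958 UMIs, against 5263, 7634 and 7667 UMIs in the members. The conventional cells were thus deeper than members in the non-irradiated library and shallower in both irradiated libraries. Il2ra was detected in 8.89%, 20.8% and 13.6% of conventional cells. Ctla4 was detected in 66.7%, 65.8% and 65.1% of them and Tnfrsf4 in 42.7%, 59.2% and 46.5%. All 4 markers were thus detected in more members than conventional cells, but Ctla4 and Tnfrsf4 were common in both classes. Gpr83, a receptor often listed for this cell type, was close to absent, with 1, 4 and 4 UMIs.

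The threshold of the rule lies at 1 Foxp3 UMI. The 201 members with exactly 1 Foxp3 UMI had Ikzf2 in 65.4%, 88.8% and 82.6% of cells, near the 333 members with 2 or more, in which it was 78.0%, 91.9% and 89.2%. Cells just outside, with no Foxp3 and a Cd4 UMI, had the shares given above. A further 71 Foxp3-positive barcodes were left out for a Cd8 UMI, and those of them with Cd3 and at most 1 Cd79a UMI carried Ikzf2 in 66.7%, 90.6% and 86.2% of 6, 32 and 29 cells. Another 35 were left out for lack of a Cd3 UMI and 2 for Cd79a. The rule thus excludes some cells that look like members by these markers, and a regulatory T cell whose Foxp3 was not captured is counted among the conventional cells.

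Regulatory T cells made up a larger share of the lung cells captured after irradiation, and a smaller share in the knockout library than in the irradiated wild-type library. They were 0.512% (exact binomial interval 0.397 to 0.650), 4.50% (3.98 to 5.06) and 2.08% (1.81 to 2.39) of kept cells. The irradiated wild-type share was 8.79 times the non-irradiated share (6.73 to 11.5), the knockout share 0.464 times the irradiated wild-type share (0.387 to 0.555), and the knockout share 4.07 times the non-irradiated share (3.09 to 5.36). The intervals of the 3 shares do not overlap. Fewer other cells and more regulatory T cells cannot be told apart in a share of this kind.

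The size of these differences depended on the denominator. Among cells with a Cd3 UMI, members were 2.75%, 8.68% and 3.603%, and the ratios were 3.16 (2.43 to 4.11) for irradiated wild-type against non-irradiated and 0.415 (0.348 to 0.496) for knockout against irradiated wild-type. Among CD4-type T cells, meaning Cd3-positive, Cd8-negative cells with a Cd4 or a Foxp3 UMI, members were 22.7% of 295, 41.8% of 624 and 27.4% of 753 cells. The ratio of the first pair was then 1.84 (1.46 to 2.32) and that of the second 0.654 (0.564 to 0.759). The knockout library was lower than the irradiated wild-type library under each of these denominators.

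Because a deeper cell has a better chance of showing a Foxp3 UMI, each kept cell was also thinned to 2000 UMIs. The rule was then applied again to all of them, which gave 43, 117 and 84 members. Of the original members only 0, 1 and 4 were too shallow, and the others that dropped out lost their Foxp3 or Cd3 UMI. A cell first left out for Cd8 or Cd79a could enter the thinned set by losing those UMIs, and such cells were not counted. Shares of thinned members below refer to this newly drawn set. Thinned shares of kept cells were 0.416%, 2.16% and 0.933%, with ratios of 5.17 (3.65 to 7.33) and 0.433 (0.328 to 0.572) for the first and second pair. Among Cd3-positive cells the thinned ratios of these pairs were 1.86 (1.32 to 2.63) and 0.386 (0.293 to 0.508). The first of them lies below the interval found at the deposited depth. Thinned shares of CD4-type cells were 40.6% of 106, 45.4% of 258 and 31.6% of 266 cells. There the ratio of irradiated wild-type to non-irradiated was 1.12 with an interval of 0.856 to 1.46. A larger share within CD4-type cells was thus not resolved after thinning. Thinning also changes this denominator, because conventional cells count only with a Cd4 UMI and members count without one. The thinned share of CD4-type cells therefore cannot show what depth alone does. Against the non-irradiated library, the knockout library turned direction: its share of Cd3-positive cells was 1.31 times as large as deposited (1.00 to 1.72) and 0.719 times when thinned (0.4997 to 1.03). Female cells alone gave 0.659%, 5.52% and 2.43% of kept cells, and within the irradiated wild-type library female and male cells gave 5.52% and 4.26%.

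**Figure D1:**
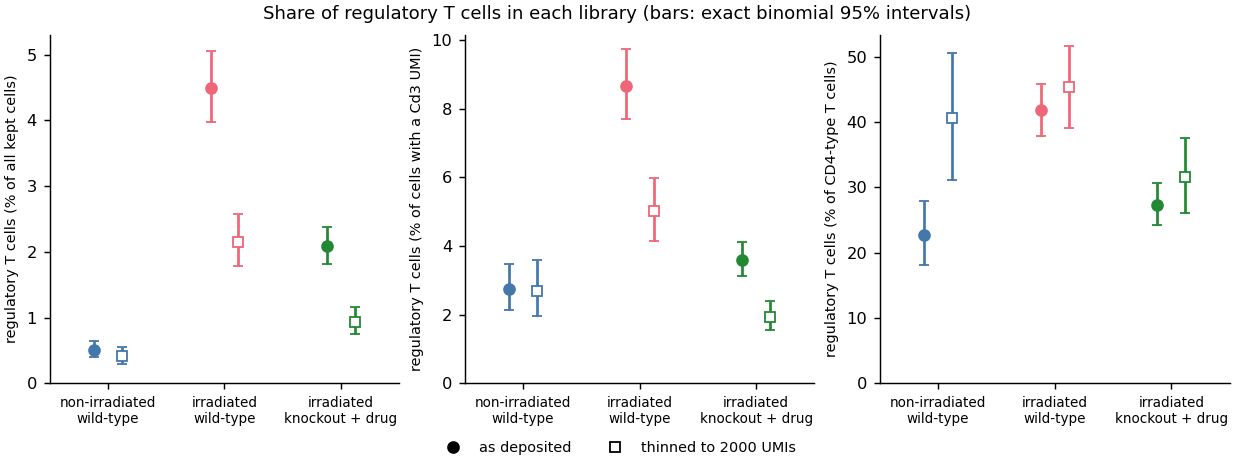
Share of regulatory T cells in each library, as a percentage of all kept cells (left), of cells with a Cd3 UMI (middle) and of CD4-type T cells (right), with exact binomial 95% intervals that cover counting error only; filled circles are the deposited depth and open squares cells thinned to 2000 UMIs. The irradiated wild-type library is highest in each panel as deposited, at 4.50%, 8.68% and 41.8%, while in the right panel the thinned intervals of the non-irradiated and irradiated wild-type libraries overlap.

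What set the members apart from other T cells of the same lungs was tested across the 3 libraries. UMIs were summed per library over regulatory T cells, conventional CD4 T cells and 2134 CD8 T cells (Cd8-positive, Cd4- and Foxp3-negative, Cd3-positive), and edgeR's quasi-likelihood test was run with the library as a block and Benjamini-Hochberg adjustment over 9879 genes. Its 9 sums leave 4 residual degrees of freedom, and the 3 libraries are 3 conditions, so a call is a difference seen across conditions. Most genes of the regulatory identity and tissue lists were higher in members than in both other classes, and most resting and egress genes were lower. Against conventional CD4 T cells 8.01% of the genes tested were higher and 7.73% lower, and against CD8 T cells 14.8% were higher and 13.1% lower. Leaving out 1 library moved these counts widely: without the knockout library the calls against conventional CD4 T cells went from 791 higher and 764 lower to 71 and 104, and without the irradiated wild-type library to 291 and 323.

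Of 16 tested genes of the regulatory T cell identity list, 12 were higher than in conventional CD4 T cells and none lower, with a list median log2 difference of 1.59 beside -0.014 over all genes. The list holds the 4 markers named above, which were known to mark these cells when they were chosen. Ikzf2 had 552, 823 and 772 CPM in members and 31.9, 207 and 90.6 CPM in conventional cells, a log2 difference of 2.88 ± 0.293 (SE; edgeR adjusted p = 0.000241). Lrrc32, the surface anchor that presents latent TGF-beta, stood at 118, 84.7 and 98.3 CPM against 13.8, 17.1 and 6.34 CPM, a log2 difference of 2.98 ± 0.261 (edgeR adjusted p = 0.000116). Tnfrsf9, the co-stimulatory receptor 4-1BB, was 2.64 log2 units higher. These 3 genes are among those with the largest differences, so their separation between the classes is no added support. Against CD8 T cells 14 of the 16 were higher and none lower. Without the knockout library 10 of the 16 still passed against conventional cells.

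The tissue and effector list had a lower median difference than the identity list. Against conventional CD4 T cells 20 of its 27 genes were higher and 1 lower, with a median of 1.10, and against CD8 T cells 25 were higher. Klrg1 had 111, 117 and 145 CPM in members against 4.21, 13.4 and 6.57 CPM in conventional cells, a log2 difference of 3.85 ± 0.268 (edgeR adjusted p = 4.21e-05). Il1rl1 had 194, 218 and 139 CPM against 23.5, 40.5 and 8.83 CPM, or 2.96 ± 0.232 (edgeR adjusted p = 6.75e-05). Both receptors of the tissue-adapted form were thus far above conventional cells in every library, the non-irradiated one included. Areg, which encodes amphiregulin, stood at 146, 161 and 146 CPM in members and 31.9, 104 and 39.6 CPM in conventional cells (log2 difference 1.30 ± 0.307, edgeR adjusted p = 0.0178). The anti-inflammatory cytokine gene Il10 was higher by 2.25 (edgeR adjusted p = 0.00889), from 21, 146 and 107 UMIs. Icos, a co-stimulatory receptor, was the 1 gene of the list that was lower, by 0.45 on the log2 scale (edgeR adjusted p = 0.039). Without the knockout library only 6 of the 27 passed.

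Among genes that carry out suppression, 10 of 14 were higher than in conventional CD4 T cells and none lower (median 1.252). They included both chains of the integrin that activates TGF-beta, Itgav and Itgb8, with log2 differences of 1.24 and 2.14, and the fibrinogen-like effector Fgl2 with 1.27. Granzyme B, Gzmb, was 1.10 higher than in conventional cells, at 268, 193 and 226 CPM, and did not pass against CD8 T cells (log2 difference -0.28, edgeR adjusted p = 0.0699). Of 12 inhibitory receptors and their regulators 6 were higher (Ctla4, Pdcd1, Tox, Lag3, Havcr2 and Tigit) and none lower. Of 12 TNF receptor superfamily and co-stimulation genes, 5 were higher and 5 lower. The receptors Tnfrsf4, Tnfrsf9 and Tnfrsf18 were on the higher side, and the ligands Cd40lg, Tnfsf8 and Tnfsf11 on the lower side. Without the knockout library 5 of 14 suppression genes and 3 of 12 inhibitory receptors were higher than in conventional cells, and of the co-stimulation genes 4 were higher and 2 lower.

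Those ligands were among the genes with the lowest values relative to conventional cells. Tnfsf11, the ligand RANKL, had 6.55, 14.96 and 8.44 CPM against 29.5, 115 and 87.2 CPM in conventional cells, a log2 difference of -3.12 ± 0.167 (edgeR adjusted p = 9.41e-06). Tcf7, a transcription factor of naive and memory T cells, had 41.5, 25.2 and 24.8 CPM against 202, 184 and 144 CPM, or -2.73 ± 0.14 (edgeR adjusted p = 8.54e-06). The helper ligand Cd40lg (-2.94), the death ligand Fasl (-2.82), the TNF family ligand Tnfsf8 (-2.19), the sialyltransferase St8sia1 (-2.52), the endocytic protein gene Ehd3 (-2.57) and Tdrp (-3.05) were lower too. Of 14 resting and egress genes 10 were lower and none higher (median -1.04), among them the survival factor Bcl2 (-1.37), the quiescence factor Klf2 (-1.0) and the egress receptor S1pr1 (-1.15), whereas the lymph node homing receptor Ccr7 (-0.21, edgeR adjusted p = 0.299) did not pass. Of 12 helper cytokine and lineage genes 6 were lower, including Ifng (-2.09), Il17f (-2.41), Il2 (-2.83) and Csf2 (-2.98), and 1, Stat3, was higher. Each of these 4 cytokine genes had 0 UMIs in the non-irradiated members. In female members Il2 had 2 UMIs in the irradiated wild-type and 4 in the knockout library, and Csf2 had 1 and 15. The size of these differences is therefore uncertain. Against CD8 T cells 4 of the 12 helper cytokine and lineage genes were lower and 2, Gata3 and Stat3, higher. Without the knockout library 3 of 13 helper genes were lower than in conventional cells and none higher, and 8 of 14 resting and egress genes were lower.

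The remaining high-ranking genes lay outside those lists: Sh3rf1, a scaffold with ubiquitin ligase activity (2.78 against conventional and 4.03 against CD8 T cells), the lysosomal protease gene Ctsh (2.75 and 3.45) and Tmem158 (2.35 and 3.90). Against CD8 T cells the lowest values were those of Dapl1 (-6.64), Lcn4 (-5.16), Bend4 (-4.77), Mctp2 (-4.47), Ms4a4c (-4.36) and Eomes (-4.28), a transcription factor of cytotoxic cells. Dapl1 stood at 0, 0.365 and 0.497 CPM in members and 24.8, 46.6 and 31.7 CPM in CD8 T cells. Of 24 cell cycle genes 9 were higher than in conventional CD4 T cells and none lower. None of the 24 passed without the knockout library, and 1 passed when cells were matched for depth.

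**Figure D2:**
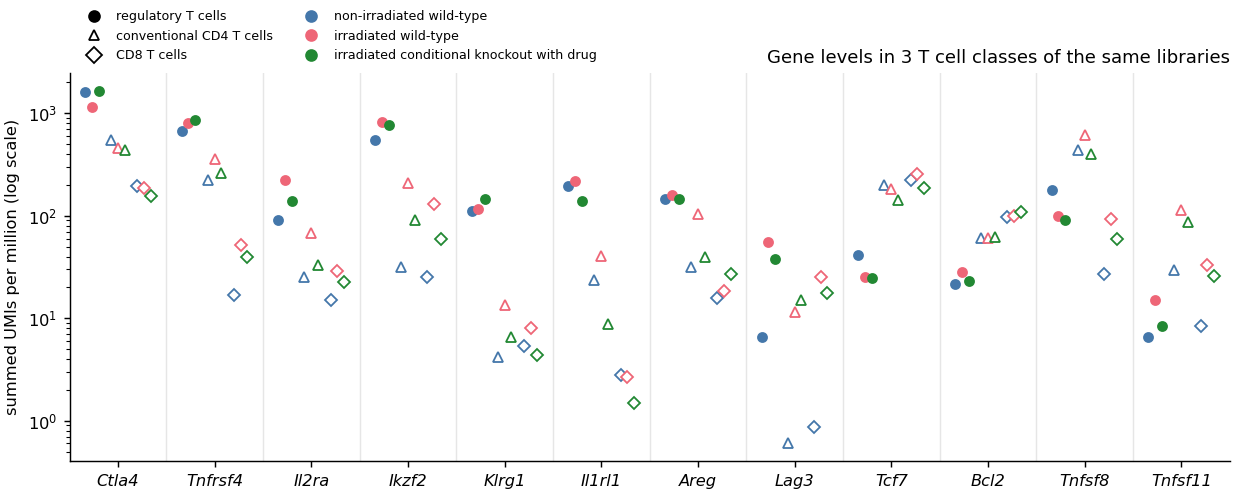
Level in CPM (log scale) of 12 genes in regulatory T cells (filled circles), conventional CD4 T cells (open triangles) and CD8 T cells (open diamonds), 1 point per library, coloured by library. Klrg1, Il1rl1 and Ikzf2 sit above conventional cells in all 3 libraries, while Tcf7, Bcl2, Tnfsf8 and Tnfsf11 sit below; the Lag3 level of the non-irradiated members, at 6.55 CPM, rests on 3 UMIs.

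Between libraries, a gene is said to be higher or lower here by size alone: at least 1.5-fold (0.585 on the log2 scale) after adding 5 CPM to each side, with at least 30 UMIs over both libraries. This is a description of 2 libraries, and genes of the rule are left out. Log2 differences below include the added 5 CPM. Ratios with intervals do not, and an interval that includes 1 means that counting error alone could give the difference. The first 2 comparisons share the irradiated wild-type library, and the first and last share the non-irradiated library, so they are not independent of each other.

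The first comparison sets irradiated against non-irradiated wild-type mice. In the irradiated lung, members had less Klf2 and S1pr1, the genes of tissue exit and quiescence, and more of the tissue-residence integrin gene Itgae, the chemokine receptor Ccr8, the inhibitory receptors Lag3 and Pdcd1, and cell cycle genes. Among 7242 measured genes 14.9% were higher and 10.1% lower, with a median log2 difference of 0.059. Of 16 measured identity genes 3 were higher and 2 lower, of 27 tissue and effector genes 5 were higher and 4 lower, and of 12 resting and egress genes 6 were lower and none higher. The markers Ctla4, Tnfrsf4 and Ikzf2 were not called.

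Of the resting and egress list, Klf2 encodes a transcription factor that maintains quiescence and drives S1pr1. Klf2 stood at 785 CPM (706 to 871) in the non-irradiated, 135 CPM (122 to 150) in the irradiated wild-type and 339 CPM (314 to 365) in the knockout members. The 3 intervals do not overlap, and the first pair differed by -2.50 on the log2 scale. S1pr1, the receptor that lets lymphocytes leave tissue along a lipid gradient, stood at 349, 105 and 148 CPM, a log2 difference of -1.68 for the first pair. Both genes stood in the same order in conventional CD4 T cells, where Klf2 was 1029, 378 and 610 CPM and S1pr1 501, 304 and 309 CPM. In cells thinned to 2000 UMIs, Klf2 was detected in 67.4%, 19.7% and 25.0% of members. Foxp1, another quiescence factor (-0.80), Lef1 (-0.76), Tcf7 (-0.62) and Igfbp4 (-2.81) were the other 4. The interval of the Tcf7 ratio (0.36 to 1.07) includes 1, and 62.9% of the non-irradiated Igfbp4 UMIs came from 1 cell. The list median was -0.542 in members and -0.088 in conventional cells. Without marker-rich members 6 of 11 measured genes were lower.

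Residence and homing genes split by gene. Itgae, the alpha chain of the integrin that binds E-cadherin on epithelium, stood at 39.3 CPM (23.3 to 62.1), 140 CPM (126 to 154) and 61.1 CPM (50.8 to 72.9). The irradiated wild-type members were highest and the other 2 intervals overlapped. Ccr8, a chemokine receptor of activated regulatory T cells in tissue, stood at 10.9, 58.4 and 45.2 CPM from 5, 160 and 91 UMIs, so that both irradiated libraries were above the non-irradiated one (ratio of the first pair 2.25 to 16.7). The integrin chain Itga4 was higher by 0.91 and the chemokine receptor Cx3cr1 at least 2.51-fold, from 45 UMIs against none and a floor of 3 UMIs. The monocyte-type chemokine receptor Ccr2 was lower at 343, 129 and 199 CPM, a log2 difference of -1.38. Cd69, which opposes S1pr1 on the cell surface, was lower by 0.64 on the log2 scale. The integrin chain Itgb1 was lower by 1.08 and only by 0.26 without marker-rich members, which ends its call. Over the 16 chemokine receptor and homing genes measured, 2 were higher and 3 lower, beside 14.9% and 10.1% of all genes. The list median was 0.028 beside 0.059 over all genes, so the list as a whole did not move.

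Among the identity genes, Il2ra stood at 91.7 CPM (66.0 to 124), 223 CPM (205 to 241) and 140 CPM (124 to 157), and the first pair differed by 1.24. Its interval in each library lay apart from the others, and conventional cells followed the same order at 25.3, 68.1 and 32.9 CPM. Socs2, a feedback inhibitor of cytokine receptors, was higher by 0.69 and Itgb8 by 0.65, although the Itgb8 interval (0.84 to 4.15) includes 1 and Socs2 lost its call among members with 2 or more Foxp3 UMIs (0.19). Ikzf4 (Eos, a partner of Foxp3) was lower by 0.66 and the semaphorin receptor Nrp1 by 0.75. Of the tissue list, Rora, the nuclear receptor of type 2 lymphoid cells, was higher at 1056, 1956 and 1390 CPM and Tgfb1 at 153, 289 and 256 CPM. The opioid precursor gene Penk stood at 28.4, 63.1 and 35.2 CPM, with 92.3% of its non-irradiated UMIs from 1 cell. Batf, a transcription factor of effector regulatory T cells, was lower at 266, 108 and 174 CPM, and Icos at 700, 420 and 452 CPM. Irf4 was lower by 0.67 and S100a6 by 0.60, and S100a6 kept its call in 6 of 13 alternative settings.

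Some suppression genes and 2 inhibitory receptors were higher after irradiation. Lag3, an inhibitory receptor that binds MHC class II, stood at 6.55 CPM from 3 UMIs, 55.8 CPM from 153 UMIs and 37.7 CPM from 76 UMIs (ratio of the first pair 2.86 to 41.8). Pdcd1, which encodes PD-1, stood at 34.9, 96.4 and 104 CPM (1.67 to 4.90). Both irradiated libraries lay above the non-irradiated one for each gene. With Tgfb1, Itgav (146, 270 and 181 CPM) and Itgb8, 4 of 14 suppression genes were higher and none lower, and with Btla, an inhibitory receptor that was lower, 2 of 10 inhibitory receptors were higher and 1 lower. Over all genes measured in this pair 14.9% were higher and 10.1% lower, with a median of 0.059. The list median was 0.274 for suppression genes and -0.076 for inhibitory receptors, so the inhibitory receptor list as a whole was not higher. Areg, Il10 and Klrg1 were not called in any pair of libraries. The Areg level of the irradiated wild-type members was 117 CPM in female and 348 CPM in male cells.

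Cell cycle genes were higher in members and not in conventional CD4 T cells, although the difference between the 2 cell classes was not tested. Top2a, the topoisomerase of dividing cells, stood at 21.8, 103 and 78.9 CPM in members and 48.2, 34.2 and 36.7 CPM in conventional cells. Mki67, a proliferation marker, stood at 19.6, 90.5 and 40.2 CPM in members and 42.7, 20.5 and 31.7 CPM in conventional cells. Of 24 measured genes 19 were higher and none lower, with a median of 0.946 in members and -0.389 in conventional cells. Without marker-rich members 15 were higher and 1 lower (median 0.772). In cells thinned to 2000 UMIs only 4 of the genes could be measured, with a median of 0.108. There, 0 of 43, 10 of 117 (8.55%) and 8 of 84 members (9.52%) had a UMI of Mki67, Top2a, Birc5, Cdk1, Ccna2 or Ccnb1. A count of 0 of 43 allows a share of up to 6.98%, so cycling members in the non-irradiated lung were too few to size at this depth.

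Some interferon-gamma-induced and glycolysis genes were higher. Tap1, which pumps peptides into the endoplasmic reticulum, stood at 65.5, 167 and 166 CPM. The immunoproteasome subunit gene Psmb9 stood at 54.5, 124 and 141 CPM, and its partner Psmb8 at 159, 345 and 391 CPM. Of 19 measured interferon-gamma-induced genes 7 were higher and 2 lower (median 0.374; 0.247 in conventional cells). The MHC class I genes B2m, H2-K1 and H2-D1 were not called in this pair. The intervals of Gbp6 (0.91 to 29.9) and Nlrc5 (0.90 to 14.0) include 1, and the log2 difference of Psmb8 was 0.10 in thinned cells. Of 15 glycolysis and hypoxia genes 6 were higher and 2 lower (median 0.568; -0.072 in conventional cells), among them the enzymes Tpi1 at 56.7, 133 and 112 CPM and Eno1 at 116, 239 and 185 CPM.

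Of 17 immediate early and dissociation genes 11 were lower and none higher, but 78.3% of the non-irradiated Fos UMIs, 67.8% of those of Egr1 and 72.8% of those of Fosb came from 1 cell. Without marker-rich members 5 of 16 were lower. Of 17 targets of the DNA damage factor p53, 5 were lower, none higher and 12 not called, with a median of -0.022. Bbc3, among the 5, turned sign when a Cd4 UMI was required. Btg2, an antiproliferative p53 target, stood at 192, 69.7 and 91.4 CPM, and the cell cycle inhibitor Cdkn1a at 140, 88.0 and 108 CPM. The Cdkn1a call was lost in 6 of 13 alternative settings.

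Among the genes outside the lists that the naming rule admits, Tff1 had the highest log2 difference. Tff1, a secreted trefoil peptide better known from gastric mucosa, stood at 8.73 CPM from 4 UMIs, 283 CPM from 775 UMIs and 152 CPM from 306 UMIs (ratio of the first pair 12.6 to 119). It was detected in 44.4% of irradiated wild-type members and followed the same order at lower levels in conventional CD4 T cells (1.81, 70.3 and 40.8 CPM) and in CD8 T cells (0.431, 17.5 and 17.3 CPM). Rnf152, a lysosomal ubiquitin ligase, stood at 2.18, 73.0 and 34.8 CPM, from 1 UMI in the non-irradiated library (5.93 to 1328), and the cathepsin gene Ctsw at 2.18, 57.3 and 85.4 CPM (4.64 to 1044). Both measured markers of CD8 T cells, Nkg7 and Ccl5, and both of gamma-delta T cells, Trdc and Il17a, were higher in this pair too, and their part in the Ctsw result was not tested. Zc3h12c and Basp1 were also among the highest, with 33.6% of the irradiated wild-type Basp1 UMIs in 1 cell. At the lower end stood Cxcl14, Pdzd2, G0s2, Actc1 and Pde5a, for which 51.1% to 95.5% of the non-irradiated UMIs came from 1 cell, so they describe single barcodes. Il17a stood at 2.18, 157 and 67.5 CPM, with 51.6% of its irradiated wild-type UMIs from 1 cell and levels of 12.5 CPM in female and 451 CPM in male members. On the log2 scale its difference of 4.50 was above that of Tff1 (4.39).

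**Figure D3:**
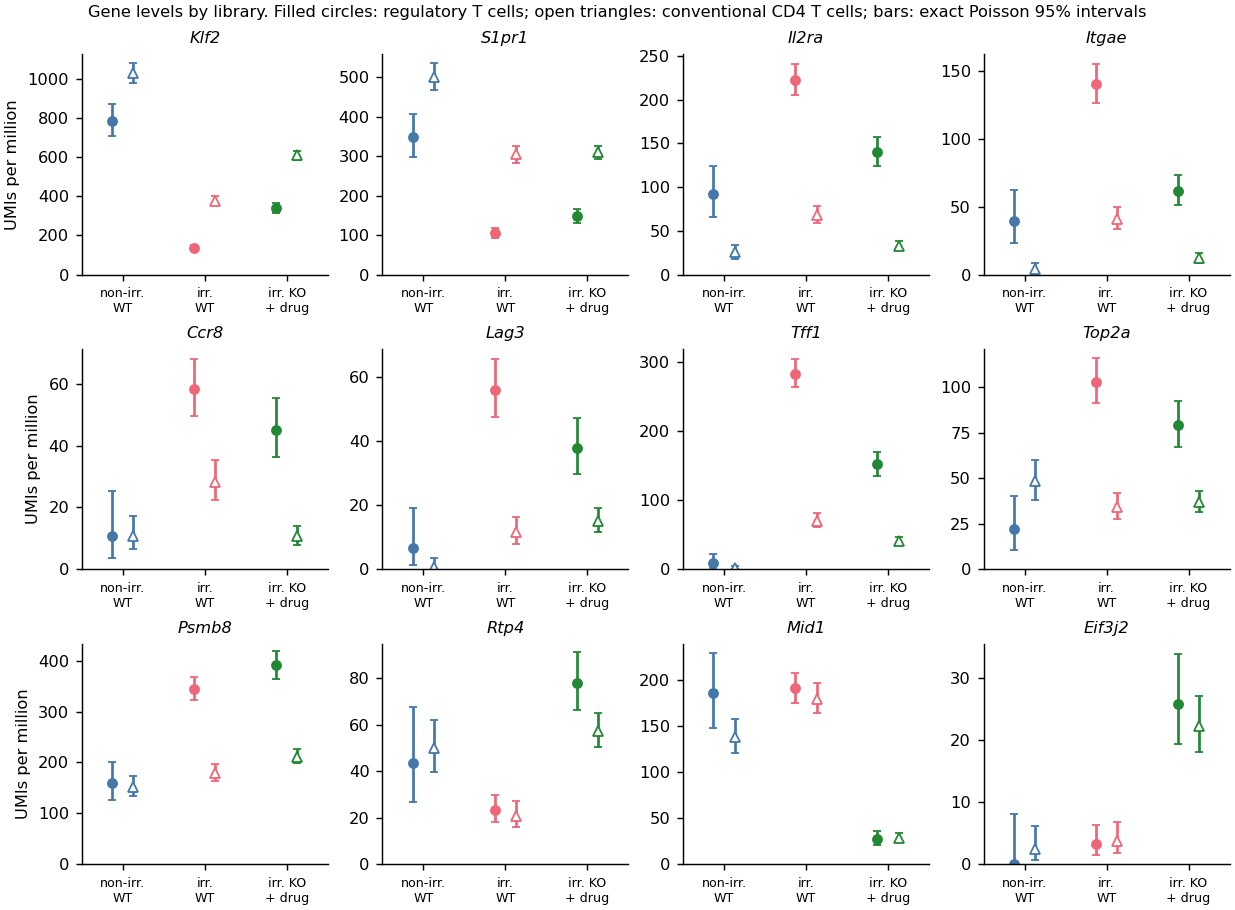
Level in CPM of 12 genes by library (horizontal axis) in regulatory T cells (filled circles) and conventional CD4 T cells (open triangles), with exact Poisson 95% intervals that cover counting error only. Klf2 and S1pr1 are highest in the non-irradiated library in both classes, Tff1 is highest in the irradiated wild-type members at 283 CPM, and Mid1 is low in the knockout library in both classes.

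The second comparison sets the knockout library against the irradiated wild-type library. The members of the knockout library had more type I interferon-stimulated transcripts, more Klf2, and less Itgae and Tff1. By the same rule 3.21% of 8044 measured genes were higher and 5.93% lower, with a median of -0.054. Of 16 identity genes only Il2ra was called, at -0.65, and its call was lost with female cells only (-0.55). Of 27 tissue and effector genes Batf was higher and Il1rl1, Itgae and Penk lower. The Il1rl1 difference of -0.63 was -0.57 with female cells only, just short of the call. None of 14 suppression genes and none of 11 inhibitory receptors was called.

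Klf2 differed by 1.29 on the log2 scale (ratio 2.21 to 2.85) and kept its call in every alternative run, as did Itgae at -1.13 (0.35 to 0.54). Both genes thus stood between their levels in the other 2 libraries. For Itgae the knockout and non-irradiated intervals overlapped, so its order in those libraries was not resolved. Thinned detection of Klf2 was 19.7% and 25.0% in the irradiated wild-type and knockout members, a smaller gap than in the CPM. Ccr2, a chemokine receptor of inflamed tissue, was higher by 0.61, a call lost in 5 of 13 alternative settings. Of 12 TGF-beta pathway genes 3 were lower and none higher (median -0.381; -0.39 in conventional cells): the receptor gene Tgfbr1 at 31.0 and 14.4 CPM, the signal transducer Smad3 at 90.1 and 58.1 CPM, and Itgae, a known target. Of 24 cell cycle genes Mki67 and Ccnb1 were lower (-1.08 and -0.66) and none higher.

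Type I interferon-stimulated genes are switched on by the factor complex ISGF3, which binds a DNA element in their promoters. Of 19 measured genes of this list 10 were higher in the knockout members and none lower, with a median of 0.587 beside -0.054 over all genes. In conventional CD4 T cells the median was 0.543. Rtp4, a chaperone of receptor transport, stood at 43.6, 23.4 and 78.0 CPM, and the knockout level was 2.48 to 4.54 times the irradiated wild-type level. Ifit1, which binds foreign RNA, stood at 19.6, 10.2 and 36.3 CPM (2.27 to 5.70). For both genes the irradiated wild-type members were lowest. Xaf1 (1.07), the nucleic acid sensor Zbp1 (0.84), the transcription factor Irf7 (0.94) and the ubiquitin-like modifier Isg15 (0.75) followed. Ifit3 and Oasl2 rest on 6 and 8 irradiated wild-type UMIs, and Slfn2 lies at 0.59. Ifitm3 is uncertain: its difference of 1.13 was 0.05 without marker-rich members. Over the list, 7 of 17 were higher without marker-rich members, 8 of 16 with female cells only and 6 of 16 without predicted doublets. Of 20 interferon-gamma-induced genes Igtp, Irgm1 and Irgm2, all immunity-related GTPases, were higher and none lower.

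Promoter stretches of 3 of these genes are shown because the list's members share a promoter element. They come from RefSeq on build GRCm38.p6, and capitals mark matches to GAAANNGAAA or, on the other strand, TTTCNNTTTC, the core of the element bound by ISGF3 and related factors. Ifit1 (chr19:34640769-34640848, plus strand) and Ifit3 (chr19:34583372-34583451, plus strand) each hold 2 matches, and Isg15 (chr4:156200840-156200919, minus strand) holds 3 overlapping matches in 1 run.
Ifit1: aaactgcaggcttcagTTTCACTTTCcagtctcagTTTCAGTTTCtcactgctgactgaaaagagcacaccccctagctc
Ifit3: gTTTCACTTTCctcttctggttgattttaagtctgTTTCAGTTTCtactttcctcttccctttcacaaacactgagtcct
Isg15: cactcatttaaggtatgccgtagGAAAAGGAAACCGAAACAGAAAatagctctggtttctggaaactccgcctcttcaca
The match nearest the gene's start begins 85, 122 and 66 bases before it. In windows from 250 bases before to 50 after the start, 10 of the 17 list genes found in the table held the motif (58.8%), against 3.99% of 27025 genes. Among genes of the list higher in the knockout members 4 of 8 held it (50%), and among those measured and not higher 5 of 7 (71.4%), so within the list the motif did not go with the call. A match describes letters, not binding.

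**Figure D4:**
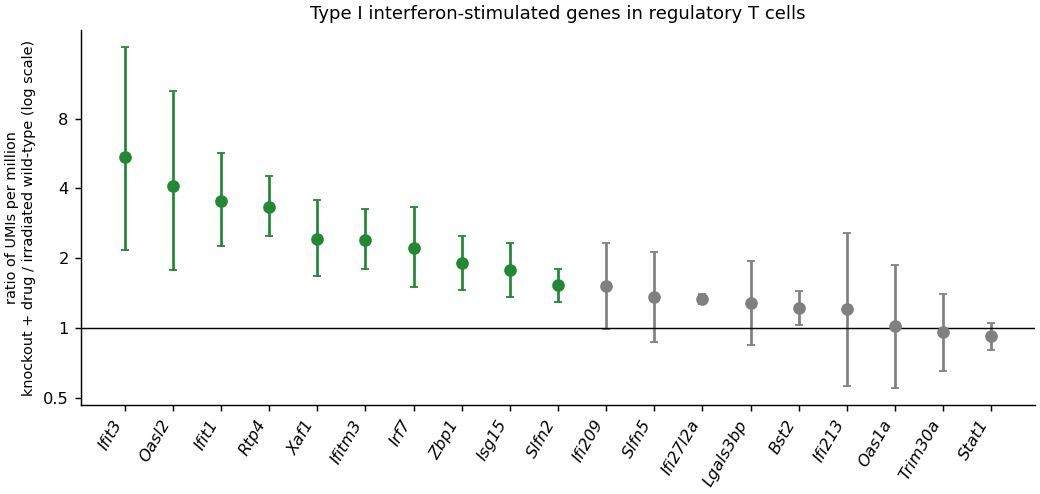
Ratio of the knockout to the irradiated wild-type level in members (vertical log axis) for the 19 measured type I interferon-stimulated genes, with 95% counting intervals; green points are genes called higher, grey points genes not called, and the line marks a ratio of 1. The 10 called genes and their intervals lie above 1, with Rtp4 at 2.48 to 4.54 and Ifit1 at 2.27 to 5.70.

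A pair of genes outside the lists separated the knockout library in all 3 T cell classes. Mid1, a microtubule-associated ubiquitin ligase on the X chromosome, stood at 186, 191 and 27.3 CPM in members, 138, 180 and 28.5 CPM in conventional CD4 T cells and 150, 151 and 31.0 CPM in CD8 T cells. Within the irradiated wild-type members it was 256 CPM in female and 55.8 CPM in male cells. Eif3j2, a translation initiation factor gene, stood at 0, 3.29 and 25.8 CPM in members, 2.41, 3.72 and 22.2 CPM in conventional cells and 0.646, 0.8997 and 21.8 CPM in CD8 T cells. Its near-identical copy Eif3j1 stood at 109, 75.9 and 49.6 CPM. Because reads of the copies could be split between them, the Eif3j2 level is uncertain. Hspa1a and Hspa1b, inducible heat shock chaperones, were lower by 1.29 and 1.20 on the log2 scale. Tff1 was lower by 0.88 and Rnf152 by 0.97. The highest gene, Slpi, drew 87.3% of its knockout UMIs from 1 cell, and Ramp2 and Igfbp5 drew 90.9% and 95%. At the lower end, 72 Pf4 UMIs came from 1 cell, and Plbd1, Procr and Cst3 drew 52.0%, 68.4% and 40.3% of their irradiated wild-type UMIs from 1 cell, and Cst3 was -0.13 without marker-rich members.

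**Figure D5:**
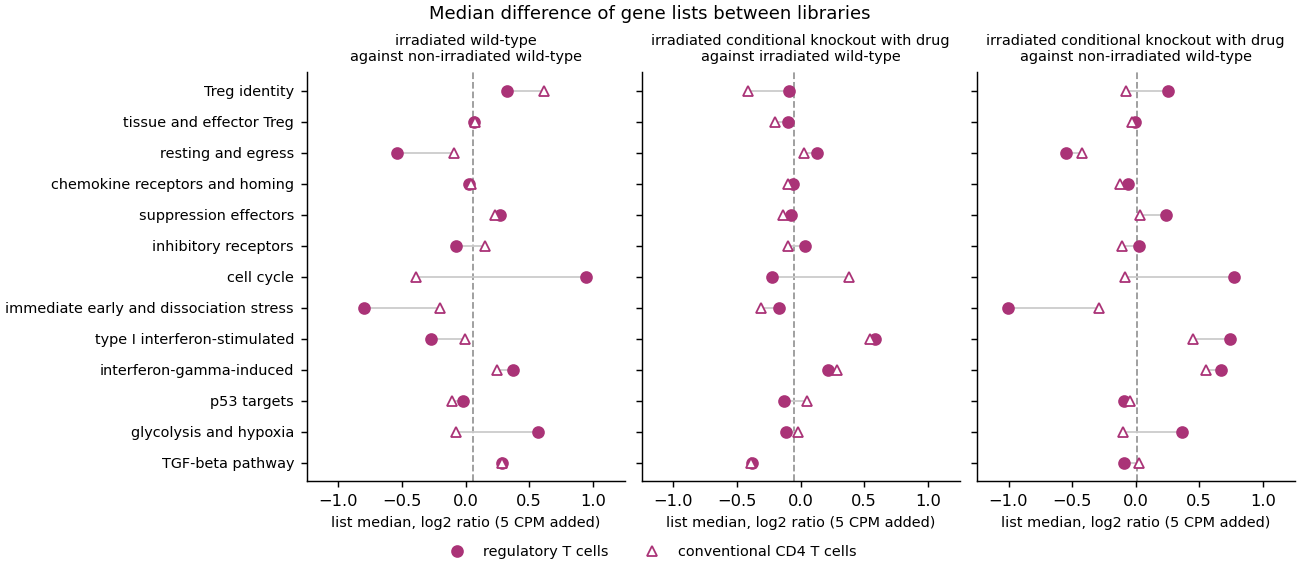
Median log2 difference of 13 gene lists for the 3 pairs of libraries, in regulatory T cells (circles) and conventional CD4 T cells (triangles); the dashed line is the median over all measured genes. The cell cycle list lies at 0.946 in members and -0.389 in conventional cells for irradiated against non-irradiated wild-type, and the type I interferon list at 0.587 and 0.543 for knockout against irradiated wild-type.

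The third comparison sets the knockout library against the non-irradiated one and shares a library with each comparison above, so its values are no further evidence for them. Of 6476 measured genes 10.4% were higher and 10.8% lower, with a median of 0.011. Of 13 resting and egress genes 5 were lower and 1 higher, with Klf2 at -1.20, S1pr1 at -1.21 and Igfbp4 at -2.89. Ccr8 (1.66), Lag3 (1.89), Pdcd1 (1.45), Tff1 (3.52) and Ctsw (3.65) were higher. Of 20 interferon-gamma-induced genes 12 were higher and 1 lower (median 0.669), with Tap1 at 1.28, Psmb9 at 1.29 and Psmb8 at 1.27. Of 20 cell cycle genes 15 were higher and none lower, and 7 without marker-rich members. Among the 20, 1 gene had 0 UMIs in the non-irradiated members. Itgae, at 0.58, was not called.

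The tissue-adapted form was also sized at equal depth. In cells thinned to 2000 UMIs, 34.9%, 41.9% and 33.3% of members had a UMI of Il1rl1 or Klrg1. The order of the libraries was not resolved, since the exact binomial intervals of these shares overlap.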

How the data were processed

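Deposited values are UMI counts per gene and barcode, made by the authors with build mm10 per the submitters' processing notes and with software version 3.1.0 per the file headers, which do not name it. The 31054 features were used as deposited. Cells were filtered and classed by the rule above (python 3.11.15, scipy 1.17.1, scanpy 1.11.5 with Scrublet for doublets, which were kept in the reported values). Members and gene lists were chosen with earlier results of these data known. Counts were summed per library and class. Classes were compared with edgeR 4.0.16 (quasi-likelihood, TMM, filterByExpr, library as block, adjusted p of 0.05), leaving out rule genes and Cd4, and with DESeq2 1.42.0 as an alternative. The block pairs classes of 1 library: their deviations from the class means correlated at 0.244 to 0.569. Without the block, 178 genes were higher and 183 lower than in conventional CD4 T cells. Libraries were compared by size only, with exact Poisson, binomial and conditional intervals and a log interval for ratios of shares. Intervals and floors of 3 counts cover counting error only. Named by rule were the 5 markers, 2 to 4 members per list with the largest differences (and all members of a count of 5 or fewer), per pair of libraries the 5 highest and 5 lowest called genes outside the lists that reached 50% of their level over all kept cells, and per class contrast the 8 highest and 6 lowest called genes with at least 30 UMIs in each library's higher class. Mitochondrial, ribosomal, haemoglobin, receptor-segment, Y-linked and clone-model genes, Xist and Tsix were left out. Other genes named were chosen after their values were seen. The scripts were tested on simulated data. Alternatives were the rule, denominators, depth, sex, doublets, added CPM, scaling, UMI minimum and each library left out. Leaving out marker-rich members or each gene's richest cell was chosen after seeing the data. Some results that rest on withheld genes are not reported here.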

Additional observations from a re-analysis of the deposited data

Results flagged for a closer look

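10 differences between libraries pointed one way in regulatory T cells and the other in conventional CD4 T cells of the same libraries. With 1 library per group none of these differences between the cell classes was tested. For irradiated against non-irradiated wild-type, the log2 difference in members and in conventional cells was 2.47 and -1.39 for Ccna2, 1.95 and -0.91 for Mki67, and 1.79 and -0.87 for Cdk1, all cell cycle genes. In the 65 female non-irradiated members Ccna2 and Cdk1 had only 1 and 2 UMIs. In the same pair the log2 difference was 2.28 and -1.61 for the cytokine gene Il17f, which had 0 UMIs in the non-irradiated members. Its irradiated wild-type level was 4.55 CPM in female and 37.7 CPM in male members. It was 1.05 and -0.78 for Cst3 and 3.01 and -1.15 for the MHC class II gene H2-Aa. For the knockout against the irradiated wild-type library, it was -2.12 and 0.64 for Cst3, -4.55 and 2.43 for H2-Aa, and -1.89 and 0.99 for the class II invariant chain gene Cd74. Of the irradiated wild-type member UMIs, 1 cell gave 46.1% for H2-Aa and 40.3% for Cst3, and without marker-rich members the second-pair differences were -0.19 for H2-Aa, -0.13 for Cst3 and -0.39 for Cd74. For the knockout against the non-irradiated library, it was 2.73 and -3.06 for Slpi, with 87.3% of its knockout member UMIs in 1 cell.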

How the results depend on the processing

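Share ratios for irradiated against non-irradiated wild-type, knockout against irradiated wild-type and knockout against non-irradiated kept their direction against all kept cells. They were 3.16 and 1.31 (first and last) among Cd3-positive cells, 1.84, 0.654 and 1.21 among CD4-type cells, 13.5 and 0.373 (first and second) with a Cd4 UMI required, and 5.17 and 2.24 (first and last) after thinning. Genes called higher and lower in the 3 pairs were 266 and 154, 155 and 240, and 183 and 128 after thinning, where fewer genes are measured. They were 458 and 375, 83 and 87, and 297 and 385 with 20 CPM added. With 1 CPM added the second pair gave 395 and 808. With at least 10 UMIs, 1323 were lower in the first pair, 408 higher in the second, and 1119 and 1400 in the last. The share of calls that were higher was 59.7%, 35.1% and 49.0%, and 69.8%, 29.7% and 59.6% without marker-rich members. Against conventional CD4 T cells, edgeR without the replicate block, which ignores the pairing by library, gave 178 higher and 183 lower, and 812 and 692 against CD8 T cells. Leaving out 1 library gave 71 to 1065 higher and 104 to 889 lower against conventional cells, and 527 to 1634 and 524 to 1369 against CD8 T cells, each lowest without the knockout library. Depth matching gave 327 and 327 against conventional cells and 806 lower against CD8 T cells. Values that turned were Bbc3 in the first pair (0.47 with Cd4 required), H2-Aa in the first pair (-0.32 without marker-rich members), and in the second pair Ifitm3 (-0.11 with at least 2 Foxp3 UMIs) and Il17a (2.09 with female cells only). The cause was not tested. The 67 non-irradiated members limit the precision of every comparison with that library.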
